A study of Drosophila melanogaster with 3 samples.

Results

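The genes that encode the subunits of the proteasome were examined for promoter binding by clockwork orange (cwo) in Drosophila embryos. A gene was a member when the dm6 annotation listed it as protein-coding and its symbol began with Prosalpha, Prosbeta, Rpn or Rpt followed by a digit. There were 48 such genes among 13945 protein-coding genes. Of these, 32 carry a symbol of the prefix and a number alone, and 16 are paralogues with letters after the number (R, T and their numbered forms). A gene was counted as bound when the summit of a region in the authors' optimal list lay within 1000 bp of 1 of its transcription start sites (TSSs). The optimal list holds the regions kept by an irreproducible discovery rate procedure.

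The proteasome degrades proteins that carry ubiquitin chains. Its 20S core is a stack of alpha and beta rings, with the proteolytic sites on beta subunits, and its 19S cap has a base with an ATPase ring and a lid that removes ubiquitin from the substrate. In the fly, the cap'n'collar (cnc) gene makes a factor that activates proteasome genes, and Keap1 restrains that factor. Clockwork orange is a repressor of the basic helix-loop-helix Orange family, known in the circadian clock and for the E-box CACGTG.

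Binding was measured by chromatin immunoprecipitation and sequencing with an antibody against GFP. The 3 samples are biological replicates of 1 group: whole embryos of both sexes, aged 6 to 24 h by the source name (a separate age label disagrees with it), from a transgenic line whose cwo protein bears GFP at its C-terminus. The chromatin was sonicated, with a listed size range of 200 to 800. No second condition or age was analysed here, so every value describes that 1 group, and whole embryos mix all tissues. Each replicate list and the list from pooled reads holds 30000 regions, background included by design, and the 7366 optimal regions are the strongest 7366 of the pooled list by signal. Median signal differed between the lists of replicates 1, 2 and 3, at 33.0, 44.2 and 65.2, so regions are compared by their rank within a list, where rank 1 is the strongest. Read depth is unknown from these lists.

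Stretches from 3 of the 4 bound promoters are shown first, because they hold the finding with its sequence. Each is printed 5′ to 3′ on the strand of the subunit gene, on dm6, with the summit base in capitals. The stretch of Rpn3 is the whole interval between its first TSS and that of the divergent gene l(2)37Bb. The other stretches are the summit of Rpn5, which lies in an intron of the divergent gene Hat1, and the intergenic summit of Rpn11.
Rpn3 (chr2L:19051613-19051789, plus strand): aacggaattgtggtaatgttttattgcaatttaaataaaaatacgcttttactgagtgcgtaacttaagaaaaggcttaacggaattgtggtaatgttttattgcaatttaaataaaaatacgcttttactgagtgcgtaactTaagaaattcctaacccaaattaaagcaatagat
Rpn5 (chr3R:5789148-5789268, plus strand): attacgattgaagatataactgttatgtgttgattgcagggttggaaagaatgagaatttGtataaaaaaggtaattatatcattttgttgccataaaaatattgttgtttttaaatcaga
Rpn11 (chr2L:5059905-5060025, minus strand): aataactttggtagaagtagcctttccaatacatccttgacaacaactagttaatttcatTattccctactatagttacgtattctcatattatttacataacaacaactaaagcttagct

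None of these stretches holds CACGTG. GC content within 100 bp of the summit was 30.3% at Rpn3, 29.9% at Rpn5 and 26.9% at Rpn11, but 47.8% at Rpn8, the bound gene not shown, beside a median of 38.8% over optimal summits. The Rpn3 stretch is built on a tandem repeat: a run of 78 bases occurs 2 times without a mismatch, at chr2L:19051603-19051680 and directly after it at chr2L:19051681-19051758. The summit, at position 19051756, is in the second copy, 34 bp before the Rpn3 TSS. No source used here says how reads from repeated sequence were placed, and the part of the repeat in the Rpn3 rank was not tested. In the same search, widened by 150 bases on each side, the longest such run at Rpn11 was 10 bases, and none of 10 or more was found at Rpn5.

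Few proteasome genes were bound. An optimal summit lay at a TSS of 4 of 48 subunit genes, a share of 8.33% (95% Wilson interval 3.29% to 19.6%), beside 25.3% of all protein-coding genes, 3535 of 13945. All 4 were among the 32 plain-symbol genes, 12.5% (4.97% to 28.1%), an interval that holds the 25.3% of all protein-coding genes. The 4 genes were Rpn3, Rpn5, Rpn8 and Rpn11, all of the 19S lid. At the looser level of any region in the pooled list, 16 of 48 subunit genes had a summit at a TSS. The share was 33.3% (21.7% to 47.5%), beside 51.3% of all protein-coding genes. All 16 were plain-symbol genes, 50% of 32 (33.6% to 66.4%), an interval that holds the 51.3% of all protein-coding genes. None of the 16 paralogues had such a summit. The low share at this level thus came from the paralogues, and the plain-symbol genes lay near all genes. Among genes with such a pooled summit, 4 of 16 subunit genes were bound, 25.0% (10.2% to 49.5%), beside 49.4% of protein-coding genes. Intervals cover counting error over genes only.

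The low share was seen in each replicate. Taking the strongest 7366 regions of each replicate list, subunit genes with a summit at a TSS numbered 4, 4 and 5 of 48 in replicates 1, 2 and 3, or 9.03% ± 1.20 (SD, n = 3). The same count over all protein-coding genes gave 25.8%, 25.5% and 25.0%, or 25.4% ± 0.446 (SD, n = 3). The lists did not overlap in this share: the highest value of the subunit genes was 10.4% and the lowest of all protein-coding genes 25.0%. All 3 lists score the same 48 genes, so this spread covers the libraries and not the counting error over genes. The plain-symbol genes alone gave 12.5%, 12.5% and 15.6% in replicates 1, 2 and 3. Rpn3, Rpn5 and Rpn8 were among the genes counted in all 3 replicates. Rpn11 was counted in replicates 2 and 3, Prosbeta1 in replicate 1 alone and Prosalpha4 in replicate 3 alone.

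Gene families of other housekeeping complexes gave other shares. Of 88 ribosomal protein genes, defined by RpL or RpS and a digit, 60 were bound, 68.2% (57.9% to 77.0%). Of 22 genes with a symbol of Vha and a digit, most of which encode subunits of the proton-pumping V-ATPase, 9 were bound, 40.9% (23.3% to 61.3%). Over the replicate lists the shares were 66.7% ± 5.37 for ribosomal protein genes and 45.5% ± 7.87 for V-ATPase genes (SD, n = 3). The interval of all 48 proteasome genes did not overlap those of either family. The interval of the plain-symbol genes, 4.97% to 28.1%, overlapped that of the V-ATPase genes but not that of the ribosomal protein genes. No set test was made, since the lists were chosen with earlier results known.

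**Figure D1:**
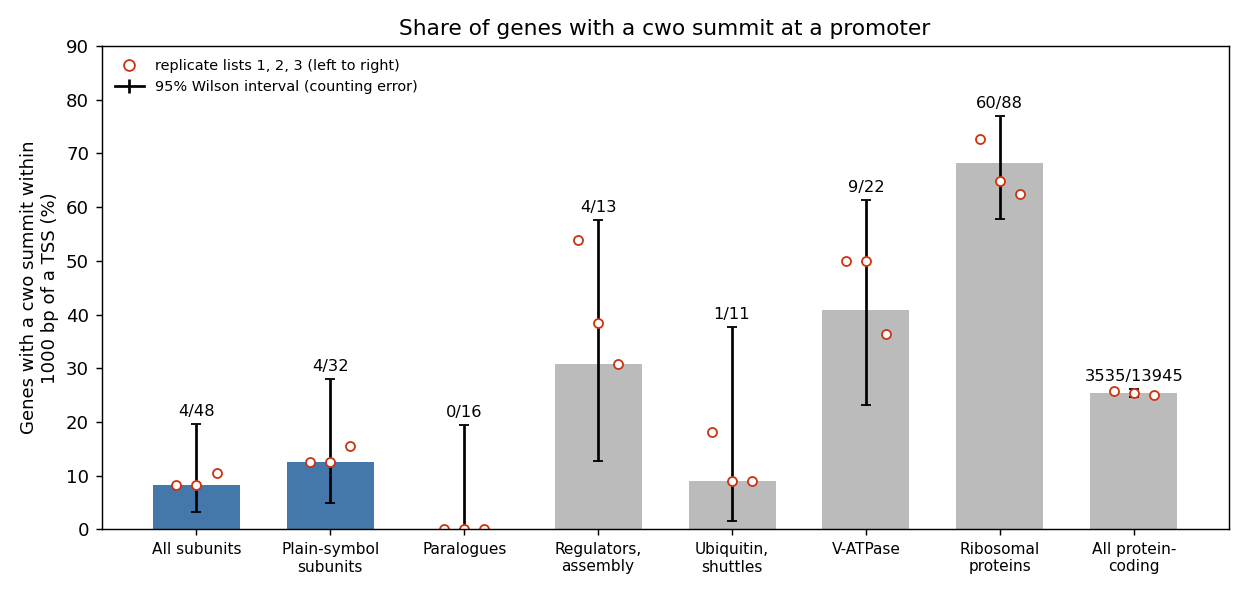
Share of genes (%) with a cwo summit within 1000 bp of a TSS, by gene list. Bars give the optimal list with 95% Wilson intervals and the count of bound genes over all genes, and circles give the strongest 7366 regions of replicates 1, 2 and 3. All 3 circles of the subunit genes lie at or under 10.4%, and those of all protein-coding genes lie between 25.0% and 25.8%.

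By place in the complex, all bound genes were of the lid. Of the 9 lid genes among the members, the paralogue Rpn12R included, 4 were bound, 44.4% (18.9% to 73.3%). That interval holds the 25.3% of all protein-coding genes. A pooled summit lay at 6 of the 9, beside 51.3% of all. The lid subunit Sem1 falls outside the symbol rule, is counted with the partners below and had no pooled summit. None of the 25 genes of the 20S core was bound, which allows a share of up to 12% by a count of 3 and 13.3% by the Wilson interval, and 6 had a pooled summit. Those 25 include paralogues. Among plain-symbol genes alone, each core ring had 0 of 7 bound, with a Wilson upper limit of 35.4%. None of the 9 genes of the ATPase ring was bound (Wilson upper limit 29.9%) and 2 had a pooled summit. The other base genes (Rpn1, Rpn2, Rpn10, Rpn13 and Rpn13R) had no bound gene among 5 (upper limit 43.4%) and a pooled summit at 2. In the ATPase ring, the other base genes and each plain-symbol core ring, the upper limits lie above 25.3%. These counts of 0 cannot be set apart from all genes.

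Rpn3 and Rpn5, scaffold subunits of the lid, ranked best. Rpn3 (FBgn0261396, chr2L:19051790-19053681, plus strand) had rank 2113 of 7366 with a signal of 632. Its region ranked 2509, 2191 and 2067 in replicates 1, 2 and 3, a mean of 2256 ± 228 (SD, n = 3), so the replicates lay close together. The Rpn3 summit was 144 bp from the TSS of l(2)37Bb, which is transcribed the other way. Rpn5 (FBgn0028690, chr3R:5789493-5791569, plus strand) had 2 optimal summits 199 bp apart. The stronger was 285 bp before the Rpn5 TSS, with rank 2801 and a signal of 520, and the weaker was 86 bp before it, with rank 5903. The replicate ranks were 2551, 3354 and 2634, a mean of 2846 ± 442 (SD, n = 3). In each replicate the same region held both summits, so these ranks do not separate them. Both Rpn5 summits were nearer to a TSS of Hat1, an acetyltransferase gene, at 134 bp and 23 bp, so the assignment to Rpn5 is shared.

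Rpn8 and Rpn11 form the deubiquitinating pair of the lid, in which Rpn11 is the metalloprotease and Rpn8 its inactive partner. Rpn8 (FBgn0002787, chr2R:24400028-24404527, plus strand) had its optimal summit at position 24399690, 338 bp before the first of its 2 TSSs and inside an intron of Slik, a kinase gene. It had rank 3277 and a signal of 462, with replicate ranks of 5255, 3737 and 3048, a mean of 4013 ± 1129 (SD, n = 3). At the other Rpn8 TSS, the summits were of pooled ranks 16183 and 24057 only, and neither lay in a region of replicate 1. Rpn11 (FBgn0028694, chr2L:5058404-5059790, minus strand) had rank 5377 and a signal of 319, 175 bp before its TSS. Its ranks were 24743, 6483 and 3562 in replicates 1, 2 and 3, a mean of 11596 ± 11479 (SD, n = 3). Rpn11 was thus far down the list of replicate 1 and within the strongest 7366 of the other 2, and the call was lost when optimal regions had to be held by both other replicates without replicate 2 or without replicate 3. The nearest other gene starts to the Rpn11 summit were lncRNA:CR45291 at 841 bp and qtc at 850 bp.

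By strength the bound subunit genes sat in the middle of the list. Their median rank was 3039, with a range of 2113 to 5377, beside a median of 2809 over all 3535 bound protein-coding genes. The medians were 2664.5 over 60 bound ribosomal protein genes and 683 over 9 bound V-ATPase genes.

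Another 12 subunit genes had a summit at a TSS in the pooled list only. Their pooled ranks ran from 7717 to 28025, with a median of 14545.5. Prosalpha4, an alpha ring subunit, was the nearest to being bound: its rank of 7717 lay 351 places past the end of the optimal list, with a signal of 240 beside 248 for the weakest optimal region. The replicate ranks of Prosalpha4 were 15054, 11289 and 6887, so it entered the strongest 7366 in replicate 3 alone. Its summit was 327 bp from its own TSS and 26 bp from that of kat80, a katanin subunit gene. Prosalpha3 followed at rank 9557, with replicate ranks of 8735, 15809 and 8501 and a summit 91 bp before its TSS. Prosalpha5 lay low, at rank 24059, and was listed in replicate 3 alone.

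The catalytic beta subunits all fell in this weak class. Prosbeta1, the caspase-like subunit, had pooled rank 15346 at 136 bp from its TSS, and its replicate ranks of 5733, 28868 and 21646 disagreed: replicate 1 placed it among the strongest 7366 and the others far below. Prosbeta2, the trypsin-like subunit, had rank 13734 at 169 bp and was listed in replicates 1 and 3 at 16491 and 10489. Prosbeta5, the chymotrypsin-like subunit, had rank 26340 at 173 bp and was listed in replicates 2 and 3 at 19374 and 20145. No catalytic subunit was therefore called in the optimal list, and at each of the 3 the strongest summit was nearer to a TSS of another gene (Rrp42, mRpL39 and dgo). Prosbeta2 had a second, weaker summit of pooled rank 23597, 30 bp past its own TSS.

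Within the 19S cap, 6 further genes had weak summits. The ubiquitin receptor Rpn13 had 4 pooled summits. The best, at rank 11033 and 331 bp from a TSS, had replicate ranks of 10080 and 7682 in replicates 2 and 3. Its summits of rank 12021 (73 bp) and 12274 (752 bp) were listed in all 3 replicates. Their ranks in replicates 1, 2 and 3 were 16337, 10080 and 8703, and 7878, 16231 and 12076. The base scaffold Rpn2 had rank 13665 with close replicate ranks of 15948, 13346 and 15094. Rpt5, of the ATPase ring, had rank 13745 at 15 bp from its TSS and replicate ranks of 16740, 19893 and 12631. In the lid, Rpn12 had rank 16222 (26212, 27173 and 12695 in replicates 1, 2 and 3) and Rpn9 rank 22436, listed in replicate 1 alone at 18037. Rpt2 had the weakest summit, at rank 28025, listed in replicate 2 alone at 15465, and its summit lay 14 bp past the TSS, where the strongest summits of the other 15 genes lay before it. In all, 10 of the 16 genes with a pooled summit had their strongest summit listed in all 3 replicates.

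**Figure D2:**
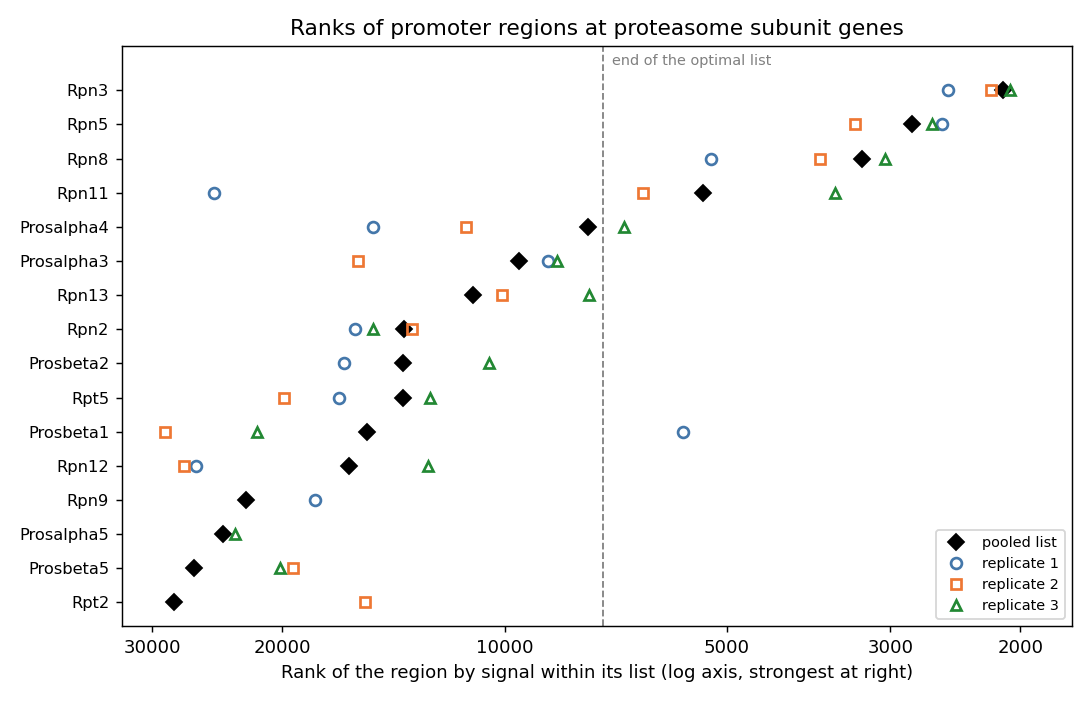
Rank by signal (log axis, strongest at right) of the strongest promoter region of the 16 subunit genes with a pooled summit, in the pooled list (diamonds) and in replicates 1, 2 and 3 (open symbols; a missing symbol means that the summit lay in no region of that list). The dashed line is rank 7366, the end of the optimal list: all symbols of Rpn3, Rpn5 and Rpn8 lie to its right, and replicate 1 of Rpn11 lies far to its left.

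Many of these promoters face another gene. Taking the strongest pooled summit of each of the 16 genes, 15 lay upstream of the subunit TSS, 13 were within 1000 bp of a TSS of another gene and 6 were nearer to that gene. A TSS on the other strand within 1000 bp upstream was found at 22 of 48 subunit genes, 45.8%, beside 33.3% of all protein-coding genes. By class it was found at 19 of 32 plain-symbol genes, 59.4%, and at 3 of 16 paralogues. Among the plain-symbol subunit genes, 2 of 19 with a divergent partner were bound (10.5%) and 2 of 13 without one (15.4%). Among all protein-coding genes, the shares were 36.2% with a divergent partner and 19.9% without. The subunit shares rest on 2 bound genes each, too few to show a difference.

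**Figure D3:**
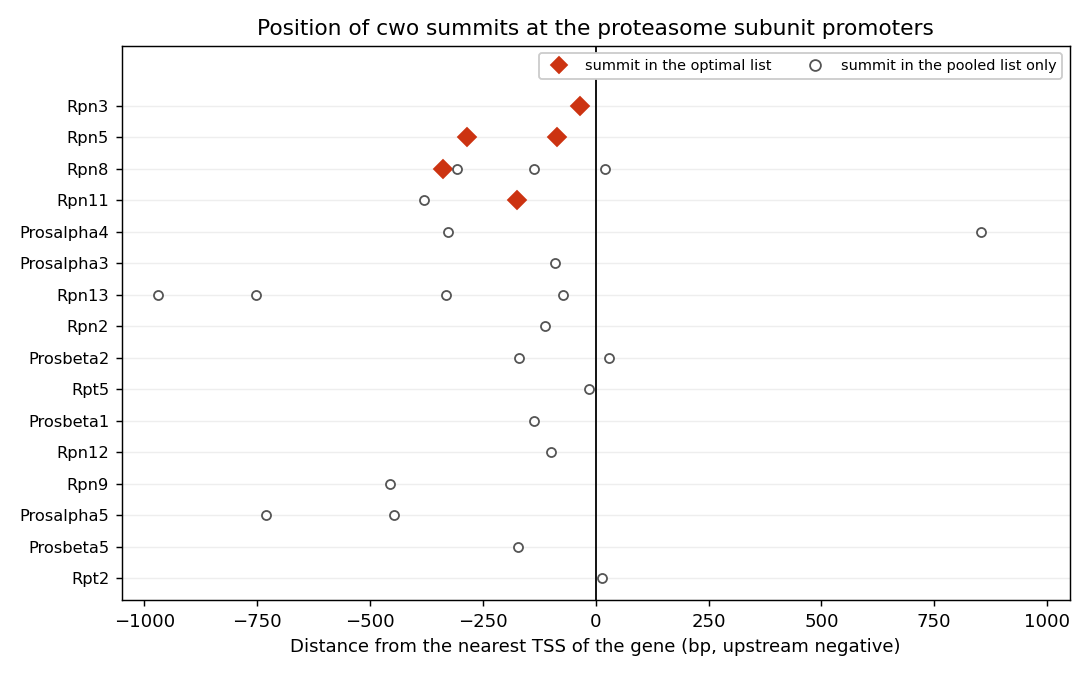
Distance (bp, upstream negative) of the 27 pooled summits within 1000 bp of a TSS of 16 subunit genes, each from its nearest TSS of that gene. Filled diamonds are the 5 summits of the optimal list, which lie 338 to 34 bp upstream, and open circles are the 22 summits of the pooled list only.

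The other 32 subunit genes had no summit at a TSS even in the pooled list. Of these, 16 carry plain symbols: Prosalpha1, Prosalpha2, Prosalpha6 and Prosalpha7 of the alpha ring, Prosbeta3, Prosbeta4, Prosbeta6 and Prosbeta7 of the beta ring, Rpt1, Rpt3, Rpt4 and Rpt6 of the ATPase ring, Rpn1 and Rpn10 of the base, and Rpn6 and Rpn7 of the lid. Rpn10 is a ubiquitin receptor, and Rpn6 is the lid subunit that clamps the cap to the core. Their nearest pooled summits lay from 1113 bp (Prosbeta6) to 20134 bp (Rpn10) from a TSS. The best-ranked of them was that of Rpt6, at rank 1389 and 3479 bp.

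The 16 paralogues had neither an optimal nor a pooled summit at a TSS, which allows a share of up to 18.75% by a count of 3 and 19.4% by the Wilson interval. They are Prosalpha1R, Prosalpha3T, Prosalpha4T1, Prosalpha4T2 and Prosalpha6T; Prosbeta2R1, Prosbeta2R2, Prosbeta4R1, Prosbeta4R2, Prosbeta5R1 and Prosbeta5R2; Rpt3R, Rpt4R and Rpt6R; and Rpn12R and Rpn13R. Several of these are known in the fly for expression in the testis. No expression was measured here. No source used here says whether reads shared with similar copies were kept. Their nearest optimal summit lay a median of 32871 bp away, with a range of 2544 to 68677 bp, beside a median of 3973 bp for the plain-symbol genes and 5454 bp for all protein-coding genes. By median, the paralogues therefore stood farther from an optimal summit than either set. Prosalpha3T (2544 bp) and Prosbeta2R2 (3390 bp) were nearer than both of the other medians.

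The limit of 1000 bp fell in a gap. Just inside it, Rpn8 was bound at 338 bp. Just outside it, Prosbeta6 lay 1113 bp from a summit of rank 4553 in the 5′ UTR of CG4098, and then Rpn12 lay 1578 bp from one of rank 5897 in an intron of Smn and Rpn2 1587 bp from one of rank 5809 near eIF2D. With a limit of 2000 bp, 7 of 48 subunit genes counted as bound, beside 31.6% of protein-coding genes. With a limit of 5000 bp, 20 counted (41.7%), 18 of them among the 32 plain-symbol genes (56.25%), beside 47.8%. At that distance the plain-symbol genes were thus no longer below the background share. Narrower rules kept the count at 2 to 4. It was 4 with a limit of 500 bp (21.3% of protein-coding genes), 4 with the outermost TSS alone (23.0%), 4 without secondary summits (25.3%), and 3, without Rpn5, when each summit counted for its nearest TSS alone (19.8%). Rpn11 dropped out with the stronger 3683 optimal regions, which gave 3 (15.6%). Leaving out replicate 1, 2 or 3 gave 4, 3 and 3, beside 21.9%, 21.2% and 21.3%, and among genes with 1 TSS position 2 of 36 subunit genes were bound, beside 18.5%.

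**Figure D4:**
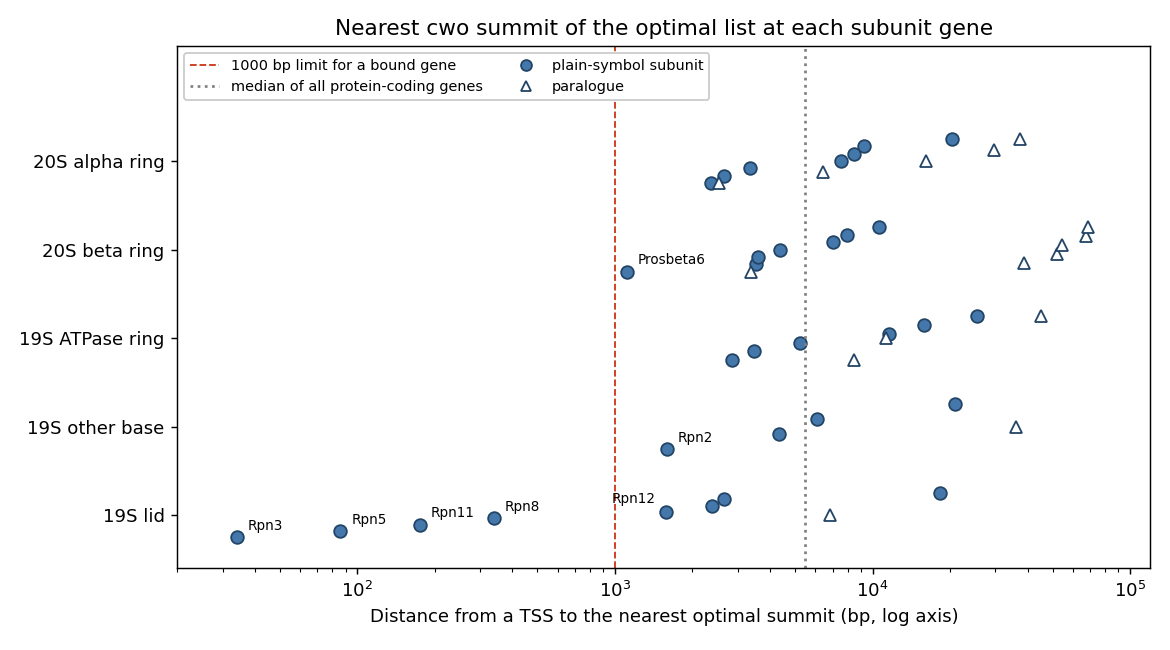
Distance (bp, log axis) from a TSS to the nearest optimal summit for each of the 48 subunit genes, by place in the complex. Filled circles are plain-symbol genes and open triangles paralogues; 4 lid genes lie left of the 1000 bp limit (dashed), Prosbeta6 is next at 1113 bp, and the dotted line is the median of all protein-coding genes, 5454 bp.

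The optimal summits nearest to the 44 unbound genes mostly lay at other genes, which leaving out bound genes nearly fixes. The summit was nearer to a TSS of another gene for 43 of 44, 97.7%, beside 93.6% of the 10410 unbound protein-coding genes, and Rpn9 was the exception. The strongest stood 3608 bp from Prosbeta5, in the 5′ UTR of CG12325, with rank 89, a signal of 3609 and replicate ranks of 99, 103 and 82. Others included rank 744 at 4338 bp from Rpn13 (5′ UTR of CG42806), rank 1334 at 3519 bp from Prosbeta7 (intron of Cerk) and rank 1389 at 3479 bp from Rpt6 (near anox). Prosbeta4 lay 4363 bp from a summit of rank 2774 in the 5′ UTR of VhaSFD, a V-ATPase gene, and Prosalpha6 lay 20313 bp from one of rank 498 in the 5′ UTR of RpL7, a ribosomal protein gene.

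The E-box CACGTG was absent from the bound summits. In a window of 100 bp to either side of the summit, read on both strands, CACGTG was found at 0 of 4 bound subunit genes, beside 14.3% of the 3535 bound protein-coding genes and 13.5% of all optimal regions. With only 4 genes, a count of 0 says little. Of 6 other motifs searched there, only CATATG was found, at Rpn3, beside 6.34% of bound protein-coding genes. The others were the class C site CACGCG of related repressors, the antioxidant response core TGACNNNGC, the DNA replication-related element TATCGATA, the core promoter motif GGTCACACT and the E-box variant CAGCTG. In the promoters, taken as 250 bases before and 50 after the outermost TSS, CACGTG was found at 0 of 48 subunit genes, beside 4.20% of all protein-coding genes and 7.95% of ribosomal protein genes. CACGCG was also found at 0 of 48, beside 6.12% of all. The Wilson upper limit for 0 of 48 is 7.41%, above both shares of all genes, so these counts of 0 say little.

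CACGTG occurred at the nearest optimal summits of 7 of the 44 unbound genes, 15.9%, which is near the 14.1% of all unbound protein-coding genes. The 7 were Prosalpha2, Prosalpha3T, Prosalpha6, Prosbeta5, Rpn7, Rpt5 and Rpt6R. These summits lay 2544 to 20313 bp from the subunit TSS. A pair of these sites is shown, with the E-box in capitals, to set beside the promoter stretches above: the site near Rpn7 is at a summit of rank 2872 that lies 2648 bp from Rpn7 and 283 bp from CG7054, and the site near Prosalpha3T is at a summit of rank 3194 that lies 190 bp from CG15554.
Rpn7 (chr3R:22464751-22464780, plus strand): tgtcttcgctatCACGTGtgcacattggtt
Prosalpha3T (chr3R:31125962-31125991, plus strand): aaatgcataaatCACGTGccagtgccgcaa

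A different motif was frequent in the subunit promoters. The DNA replication-related element TATCGATA, the palindrome known in the fly as the site of DREF, was found in 12 of 32 plain-symbol promoters, 37.5% (22.9% to 54.7%), and in 0 of 16 paralogue promoters, beside 9.36% of all protein-coding promoters and 31.8% of ribosomal protein promoters. The 12 were Prosalpha3, Prosalpha5, Prosalpha6, Prosbeta1, Prosbeta2, Prosbeta6, Rpn3, Rpn7, Rpn9, Rpn12, Rpn13 and Rpt5. Of these 12, Rpn3 was bound, 8.33%, beside 12.5% of all plain-symbol genes and 32.5% of the 1305 protein-coding genes with TATCGATA in the promoter. The share of 8.33% rests on 1 bound gene. Sites of 5 unbound genes are shown with the motif in capitals, because they cover core and cap subunits.
Prosalpha6 (chr2L:10221324-10221353, plus strand): cccgaatccctTATCGATAcccgatacaca
Prosbeta2 (chr3L:14999930-14999959, plus strand): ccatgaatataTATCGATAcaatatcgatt
Prosbeta6 (chr3L:16610444-16610473, minus strand): gtatgtataccTATCGATAacgtttaagca
Rpn12 (chr3L:16582801-16582830, plus strand): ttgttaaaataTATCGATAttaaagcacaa
Rpt5 (chr3R:23752819-23752848, plus strand): atcgctgtcacTATCGATAagcgccggcga

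The bases that flank the motif differed between these 5 sites. The first base of TATCGATA lay 16, 10, 44, 216 and 46 bases before the outermost TSS of Prosalpha6, Prosbeta2, Prosbeta6, Rpn12 and Rpt5. The core of the antioxidant response element, TGACNNNGC, which the cnc and Maf-S proteins recognise, was found in 6 of 48 subunit promoters (Prosalpha2, Prosbeta3, Prosbeta4R2, Rpn1, Rpn7 and Rpt6), 12.5%, beside 8.63% of all. The copies at Rpn7 and Rpt6 share all 9 letters of the motif and are shown for that reason, on the strand that holds it.
Rpn7 (chr3R:22462000-22462028, minus strand): tggtagtacaTGACTCTGCgatttgacaa
Rpt6 (chrX:21316068-21316096, minus strand): ctttattgtaTGACTCTGCatttgctttt

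The remaining motifs were found in few subunit promoters. GGTCACACT, a core promoter motif, was found at 5 of 48 (Prosalpha2, Prosalpha4, Prosbeta3, Rpn1 and Rpn7), 10.4%, beside 6.05% of all. CAGCTG was found at 2 of 48 (Rpt3 and Rpt3R), beside 17.7%, and CATATG at 4 of 48 (Prosalpha1, Prosalpha1R, Rpn10 and Rpn3), beside 7.82%. The median GC content of the promoters was 33.2% for the 48 subunit genes and 38.0% for all protein-coding genes. The number of TSSs was alike, with 1 TSS position at 75.0% of subunit genes and 73.5% of all, but the subunit genes were shorter, with a median length of 1382 bp beside 2166 bp. The part of length or base composition in the low share was not tested.

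Among the genes that regulate and assemble the proteasome, cnc and Keap1 carried the strongest summits. Of 13 regulators, assembly factors and partners, 4 were bound, 30.8% (12.7% to 57.6%), beside 25.3% of all protein-coding genes, and 8 had a pooled summit, 61.5% beside 51.3%. The bound share is thus near the share of all genes, and its interval overlaps that of the subunit genes. Keap1 (FBgn0038475) had 4 optimal summits, the nearest 51 bp from a TSS and the strongest, at rank 540 and 852 bp, in an intron of the neighbouring gene kuk. Its replicate ranks were 685, 656 and 458, a mean of 600 ± 124 (SD, n = 3). The cnc gene (FBgn0262975) had 7 optimal summits near its 10 TSSs and 13 within its 41132 bp, the strongest promoter summit at rank 574 with replicate ranks of 671, 843 and 513, a mean of 676 ± 165 (SD, n = 3). Both genes thus ranked above every bound subunit gene in all 3 replicates, and no promoter summit of either held CACGTG. The number of TSSs differs between these genes, with 10 at cnc, 2 at Keap1 and 1 at most subunit genes.

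Pomp, the chaperone that helps build the 20S core in yeast and mammals, had 1 optimal summit, 233 bp from its TSS, at rank 1218, with replicate ranks of 1067, 1739 and 1173 and a mean of 1326 ± 361 (SD, n = 3). The nutcracker gene ntc, an F-box protein that acts with the proteasome regulator PI31 in spermatids, was bound at rank 4864, 182 bp from its TSS, with replicate ranks of 3833, 4664 and 6456. PI31, Uch-L5, maf-S and rngo had a pooled summit only, and Pngl, REG, Txl, Usp14 and the lid subunit Sem1 had none. In replicates 1, 2 and 3 the strongest regions covered 7, 5 and 4 of the 13 genes, 41.0% ± 11.8 (SD, n = 3), a wide spread.

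Ubiquitin genes and shuttle factors gave 1 bound gene of 11, 9.09% (1.62% to 37.7%), an interval that holds the 25.3% of all protein-coding genes. A pooled summit lay at 9 of 11, 81.8%, beside 51.3% of all, so weak summits were common among them. It was Ubi-p63E, a polyubiquitin gene, with an optimal summit of rank 6785 in its own 5′ UTR, 57 bp from a TSS, and replicate ranks of 7315, 5799 and 7146, a mean of 6753 ± 831 (SD, n = 3). RpL40, RpS27A, TER94, Uba1, Ubi-p5E, Ubqn, Ufd1 and p47 had a pooled summit only, and Npl4 and Rad23 had none. The ribosomal fusion genes RpL40 and RpS27A, which also supply ubiquitin, were thus among the ribosomal protein genes that were not bound.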

How the data were processed

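The 3 samples are biological replicates of 1 group. The authors called regions on each replicate and on pooled reads, per the records deposited beside the libraries, and an irreproducible discovery rate procedure gave the optimal list, on builds dm6 and dm3. The caller, the aligner and the threshold of that procedure were not given in the sources used here, and neither was the handling of repeated reads. The signal value deposited by the authors is a score of their peak caller whose scale is not given, so it served only to rank regions within a list. The dm3 lists were not used here.

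From these lists, summits were compared with the TSSs of protein-coding genes of Ensembl release 115 on 6 chromosome arms of dm6, in which every region end lay inside its arm. Coordinates are 1-based. A replicate rank is that of the replicate region that holds the pooled summit. To leave out a replicate, optimal regions were kept when the strongest 7366 regions of both others held the summit. Motifs were searched on both strands, within 100 bp of summits and in promoters. Every motif but CACGCG, TGACNNNGC and GGTCACACT reads the same on both strands. Shares have 95% Wilson intervals. Subunit sets were counted, not tested, since 1 group holds no contrast. The counting was tested on simulated data. Every subunit gene is named. Replicate values are given for the bound genes (up to 12), and the strongest pooled summit for the unbound plain-symbol genes that have one. Members and lists were chosen with earlier results of these data known. Symbols of 13 of 14 regulators (not Ecm29) and 11 of 11 ubiquitin genes matched. Tools were Python 3.11.15, pandas 2.3.3, NumPy 2.4.6, SciPy 1.17.1 and matplotlib 3.10.9.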

Additional observations from a re-analysis of the deposited data

How the results depend on the processing

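The count of 4 bound subunit genes became 7 with a limit of 2000 bp, 20 with 5000 bp and 2 among genes with 1 TSS position. The last 2 settings were chosen after the data were seen. Of all protein-coding genes, 31.6% counted as bound at 2000 bp and 47.8% at 5000 bp, and 18.5% of those with 1 TSS position were bound. The plain-symbol genes gave 7 of 32 (11.0% to 38.8%), 18 of 32 (39.3% to 71.8%) and 2 of 22 (2.53% to 27.8%) in these settings. Each interval holds the share of all protein-coding genes in that setting. The paralogues gave 0 of 16, 2 of 16 and 0 of 14. The 20S core gave 1 of 25 (Prosbeta6) at 2000 bp and 9 of 25 at 5000 bp, 36.0% (20.2% to 55.5%). It gave 1 of 25 with replicate 1 alone (Prosbeta1), beside 25.8% of all protein-coding genes. With replicate 3 alone it gave 1 of 25 (Prosalpha4), beside 25.0%. The 19S cap gave 4 of 23 by the main rule, 17.4% (6.98% to 37.1%), an interval that holds the 25.3% of all protein-coding genes. It gave 11 of 23 at 5000 bp, 47.8% beside 47.8% of all. Among genes with 1 TSS position it gave 2 of 13, 15.4% beside 18.5%. The median rank of 3039 became 3903 in replicate 1. The 1 summit with another listed motif (Rpn3) became 0 within 50 bp. Leaving out each replicate gave 3 to 4 bound subunit genes, 3 to 4 of them with plain symbols and 3 to 4 of the 19S cap, and 0 each time in the paralogues and the 20S core. With the nearest TSS alone, 3 remained, without Rpn5. With the stronger 3683 optimal regions, 3 remained, without Rpn11. No paired analysis was possible because all samples are of 1 group. Read depth is unknown, so a weak summit and a shallow library cannot be told apart.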
